A study of Mus musculus with 12 samples.

Results

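The endoplasmic reticulum (ER) stress sensors and the RNAs handled by the sensor IRE1alpha were followed in mouse Th17 cells as a set of 10 genes. They were chosen by symbol from the 55401 genes of the count table, and 10 of 10 passed the filter on low counts. Ern1 (IRE1alpha), Atf6, Atf6b and Eif2ak3 (PERK) are the sensors. Xbp1 is the RNA that IRE1alpha splices, and Rtcb is the ligase that joins the cut ends. Bloc1s1, Ergic3, Hgsnat and Pmp22 are reported substrates of IRE1-dependent mRNA decay, in which the same RNase destroys RNAs at the ER.

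Unfolded protein in the ER lumen activates the sensors as proteins, not primarily through their transcript levels. IRE1alpha removes a short intron from Xbp1 mRNA in the cytoplasm, and the spliced form encodes an active transcription factor for genes of ER folding, transport and degradation. ATF6 and ATF6B travel to the Golgi, where the site-1 and site-2 proteases release their DNA-binding parts, while PERK phosphorylates eIF2alpha and so raises the translation of ATF4. T cells make large amounts of secreted and membrane protein on activation, and all of these branches are expressed in them.

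Wild-type naive T cells from lymph nodes had been turned into Th17 cells and then received Kira8, Stattic, both inhibitors (Kira8+Stattic) or no inhibitor (None), with 3 libraries in each group. Exposure to the inhibitors lasted 4 h. Kira8 inhibits the kinase of IRE1alpha and through it the RNase, and Stattic is an inhibitor of STAT3. The labels name neither a solvent given to None nor the cultures or animals behind the replicate libraries, so p-values measure only the spread between libraries, which may be technical. The 4 groups share wild-type genotype and the Th17 culture, and whether a protein was active was not measured. Gene counts also do not separate spliced from unspliced Xbp1.

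The fit used 10 libraries of 51.7 to 85.9 M (megacounts) each. Kira8 replicate 2 (19.8 M) and Stattic replicate 2 (9.3 M) were left out of it, so Kira8 and Stattic had 2 libraries each and Kira8+Stattic and None had 3. The left-out pair had 61.55% and 10.66% mitochondrial counts, against 3.38% to 5.22% in the other 10, and counts in 40.1% and 32.8% of olfactory receptor genes, against 4.1% to 10.2%. Levels are in CPM, counts scaled to a common library total with TMM factors, and calls were made at an adjusted p under 0.05 with edgeR's quasi-likelihood test and Benjamini-Hochberg adjustment over 21239 genes. With all 12 libraries the common dispersion was 1.01, against 0.143 in the 10, and edgeR called 0 of the 10 genes in any of the 6 comparisons (lowest adjusted p = 0.14), against 0.31% of all genes for Stattic, 0.272% for both inhibitors and 0 genes for the others. At an unadjusted p under 0.05 that fit had 2 of the 10 genes for Stattic and 1 for both inhibitors against None, and 1050 to 4110 of all genes by comparison. Quality weights in limma voom, which count the left-out pair for less, called 4, 4 and 7 of the 10 genes for Kira8, Stattic and both against None, where 22.3%, 37.1% and 47.4% of all genes were called. They called 4 for both against Kira8 (44.2% of all genes), 0 for both against Stattic (0%) and 0 for the interaction (7.36%). The T cell markers Cd3e, Cd3d, Cd3g, Cd4, Lck and Cd28 were present in every group, with summed levels of 1720 to 1890 CPM in Kira8, 2240 to 2660 CPM in Stattic, 2170 to 2310 CPM in Kira8+Stattic and 2020 to 2300 CPM in None. These sums hide members that moved apart in edgeR on the 10 libraries. With Kira8, Cd3g (log2 change -0.73 ± 0.19) and Cd3e (-0.61 ± 0.20) were called lower. With Stattic, Cd3d (0.86 ± 0.19) and Cd3g (0.60 ± 0.19) were called higher and Cd3e (-0.69 ± 0.20) lower. With both, Cd3d (0.77 ± 0.17) was called higher and Cd3e (-0.74 ± 0.17) lower. The other markers were not called. The Th17 genes Il17a, Il17f, Il23r, Ccr6 and Il22 summed to 358 to 370 CPM in Kira8, 344 to 410 CPM in Stattic, 381 to 404 CPM in Kira8+Stattic and 534 to 2520 CPM in None. Il17a and Il17f held most of these sums. Of these 5 genes, 2, 3 and 4 were called lower with Kira8, Stattic and both, against 9.59%, 18.9% and 20% of all genes. Il23r was not called in any of the 3 (0.35 ± 0.27, -0.28 ± 0.28 and -0.02 ± 0.24). The comparisons with None share the None libraries, so their results are not independent of each other.

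Sequences of some of the genes are shown first, and no result was tested against them. The first is the stretch of Xbp1 that IRE1alpha removes, read from a GENCODE transcript on mm10. It is an intron of 26 bases inside exon 4 (chr11:5524279-5524304, plus strand), shown in capitals with the flanking exon at chr11:5524259-5524324.
Xbp1 intron: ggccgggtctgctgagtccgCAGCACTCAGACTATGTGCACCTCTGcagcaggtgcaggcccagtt
These 26 bases are 0.8% of the 3248 exonic bases of Xbp1, so a gene count changes little when they are removed. IRE1alpha cuts at CTGCAG-type sites, and CTGCAG, which reads the same on both strands, was searched for in the coding sequences of the substrates. Bloc1s1 has 3 in a coding sequence of 375 bases, and 1.65% of 1335 coding sequences within 20% of its length have at least as many. Its sites are shown with the motif in capitals because Bloc1s1 was the substrate that rose, which it did with Stattic and not with Kira8. Whether the motifs bear on its level was not tested. The sites lie on the minus strand of chromosome 10 of mm10. Site 1 joins exons 1 and 2 and lies within chr10:128922716-128923393. Site 2 is in exon 2 (chr10:128922685-128922714) and site 3 in exon 4 (chr10:128920000-128920029).
Bloc1s1 site 1: gaacgcaaggagCTGCAGgagaagaggagg
Bloc1s1 site 2: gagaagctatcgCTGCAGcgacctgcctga
Bloc1s1 site 3: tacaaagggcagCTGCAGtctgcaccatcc
The coding sequences of Hgsnat (1968 bases) and Pmp22 (480 bases) hold 2 and 1 such motifs, that of Xbp1 (801 bases) holds 1 and that of Ergic3 (1182 bases) holds 0. Among coding sequences of like length, 56.5% have at least as many as Hgsnat, 41.8% at least as many as Pmp22 and 51.8% at least as many as Xbp1, and 64.5% of those near Ergic3's length have at least 1. The last sequence is the promoter of Eif2ak3, the gene with the largest rise, from RefSeq (GRCm38.p6, 250 bases before to 50 after the start, chr6:70844265-70844564, plus strand). Capitals mark CCAAT on either strand, the box bound by NF-Y.
Eif2ak3 promoter: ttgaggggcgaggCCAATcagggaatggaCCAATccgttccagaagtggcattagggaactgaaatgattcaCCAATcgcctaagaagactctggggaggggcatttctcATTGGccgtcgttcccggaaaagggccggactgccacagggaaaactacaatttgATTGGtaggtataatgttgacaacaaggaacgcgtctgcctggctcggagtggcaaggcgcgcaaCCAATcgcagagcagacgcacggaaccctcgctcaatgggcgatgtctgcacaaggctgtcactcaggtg

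Kira8 was compared with None to see how the sensors and substrates stand when IRE1alpha is inhibited. Eif2ak3 and Ern1 rose and Xbp1 fell, while the other 7 genes were not called, among them all 4 decay substrates. Those 3 of 10 genes compare with 19.3% of all genes called in this comparison, and the 2 higher and 1 lower with 9.7% and 9.59%. The median log2 change was -0.25 over the 10 genes and 0 over all genes tested. That background of 4097 genes shrank to 1802 when Kira8 replicate 1 was left out and to 1642 when replicate 3 was, and 1 of the 10 genes was still called without Kira8 replicate 3.

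Stattic was compared with None for the effect of the STAT3 inhibitor. Eif2ak3 and Bloc1s1 rose, Atf6b, Rtcb, Hgsnat and Pmp22 fell, and Ern1, Xbp1, Atf6 and Ergic3 were not called. The 6 of 10 genes called compare with 39% of all genes, and the 2 higher and 4 lower with 20.1% and 18.9%. The median log2 change of the 10 genes, -0.11, compares with 0.08 over all genes. Without Stattic replicate 3 the count was 3 of 10. The background of 8281 genes moved as well, to between 5534 and 8649 as single libraries were left out. With both inhibitors against None, Eif2ak3, Bloc1s1 and Ern1 rose and Atf6b, Rtcb and Hgsnat fell, again 6 of 10 genes, against 40.8% of all genes, 20.8% higher and 20% lower. The median was -0.10 over the 10 genes and 0.09 over all genes.

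**Figure D1:**
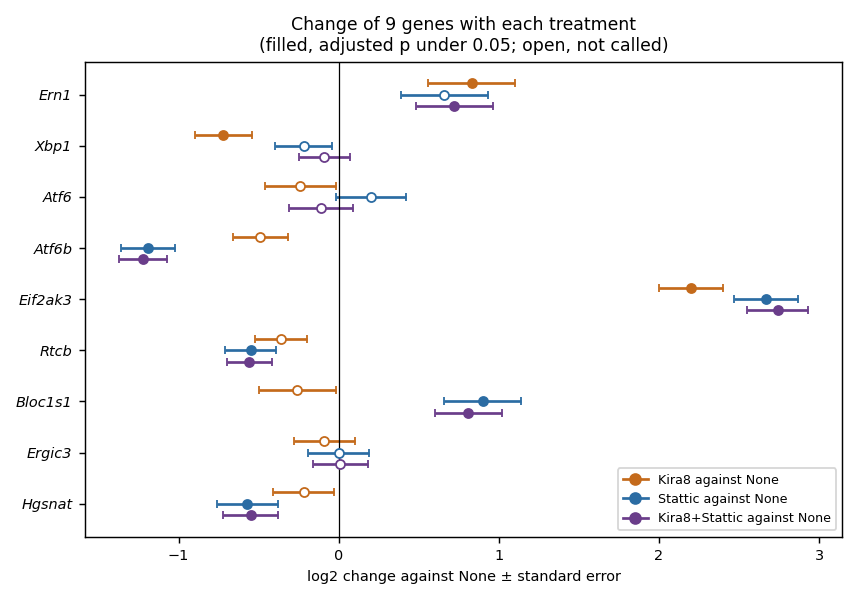
The log2 change with Kira8, Stattic or Kira8+Stattic against None (horizontal axis, ± standard error) is drawn for 9 genes, filled where called. Eif2ak3 lies between 2.20 and 2.74 in all 3 comparisons, while Atf6b reaches -1.19 with Stattic and -1.22 with both inhibitors. Pmp22 is left out because its Stattic libraries had 0 counts.

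Eif2ak3 encodes PERK, the sensor kinase that phosphorylates eIF2alpha (ENSMUSG00000031668, chr6:70844515-70905245, plus strand). It had 115 and 132 CPM in Kira8, 146 and 195 CPM in Stattic and 154, 172 and 215 CPM in Kira8+Stattic, against 21.7, 29.5 and 29.5 CPM in None. Every library with an inhibitor was above every None library, by a wide margin. The gene rose 4.59-fold with Kira8 (log2 change 2.20 ± 0.20, adjusted p = 6.1e-05), 6.34-fold with Stattic (2.67 ± 0.20, adjusted p = 3.77e-06) and 6.70-fold with both (2.74 ± 0.19, adjusted p = 1.28e-06) in edgeR's test. The call stood whichever of the compared libraries was left out, with log2 changes of 2.06 to 2.29 for Kira8, 2.44 to 2.85 for Stattic and 2.60 to 2.82 for both. In the left-out libraries Eif2ak3 was at 17.6 CPM (87 counts) in Kira8 replicate 2 and at 0 counts in Stattic replicate 2, where 3 counts are 0.323 CPM. With all 12 libraries in edgeR the log2 changes were 1.72 ± 1.36 for Kira8, 2.06 ± 1.38 for Stattic and 2.73 ± 1.41 for both, none of them called (adjusted p = 0.63, 0.406 and 0.511). With quality weights the 12 libraries gave 2.13, 2.47 and 2.68 (adjusted p = 0.00176, 0.0011 and 7.02e-05).

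The window before the Eif2ak3 start printed above holds 6 CCAAT boxes counted on both strands. Of 32851 RefSeq promoters of the same length, 37.4% hold at least 1 and 0.0791% hold 6 or more. The motif was singled out after the window had been read. The full ER stress response element, which combines CCAAT with a second box at a fixed distance, was in 0 of the 10 promoter windows found for 7 of the 10 genes, and is in 0.119% of all promoters. TGACGTG, TGACGTCA and TGATGNAAT, cores of XBP1, CREB-type and ATF4 sites, were in 0 of these 10 windows as well. CACGTG was present 2 times in the Bloc1s1 window, which 0.594% of promoters match or exceed, and 1 time in that of Atf6b. All motifs were searched on both strands.

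An antisense gene model, Gm43292, overlaps 485 of the 6026 exonic bases of Eif2ak3. It had 1.07 and 2.12 CPM in Kira8, 1.80 and 2.45 CPM in Stattic, 1.51 to 2.09 CPM in Kira8+Stattic and 0.0154 to 0.212 CPM in None, and it rose in all 3 comparisons (log2 changes 4.05 ± 0.70, 4.46 ± 0.71 and 4.27 ± 0.68). The sources used here do not say whether reads were counted by strand, so counts of the overlapping pair cannot be told apart there.

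In the 10 libraries the change of Eif2ak3 with Kira8 differed with and without Stattic. With Stattic present, the Kira8 change was 0.08 ± 0.20 (adjusted p = 1), while without it the change was 2.20 ± 0.20. The difference between these changes, the interaction, was -2.12 ± 0.28 (adjusted p = 0.00223 in edgeR's test), the only 1 of 10 genes called for it, against 8.52% of all genes (4.55% higher and 3.97% lower). It was called whichever of the 10 libraries was left out, at -2.31 to -1.90 (adjusted p = 0.00214 to 0.0162). That background of 1810 genes was 498 without Kira8 replicate 1, 515 without Kira8 replicate 3, 680 without Stattic replicate 3, and 1144 and 1137 without Kira8+Stattic replicates 2 and 3. With all 12 libraries the interaction was -1.06 ± 1.88 in edgeR (adjusted p = 0.859) and -1.92 with quality weights (adjusted p = 0.062), neither of them called. Against Kira8 alone, Kira8+Stattic was higher by 0.55 ± 0.21, which was not called (adjusted p = 0.063), but was called with DESeq2, limma voom, a filter of more than 1 CPM and a fit of those groups only (adjusted p = 0.0249, 0.0471, 0.0359 and 0.0217) and without Kira8+Stattic replicate 1 (0.64, adjusted p = 0.043).

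**Figure D2:**
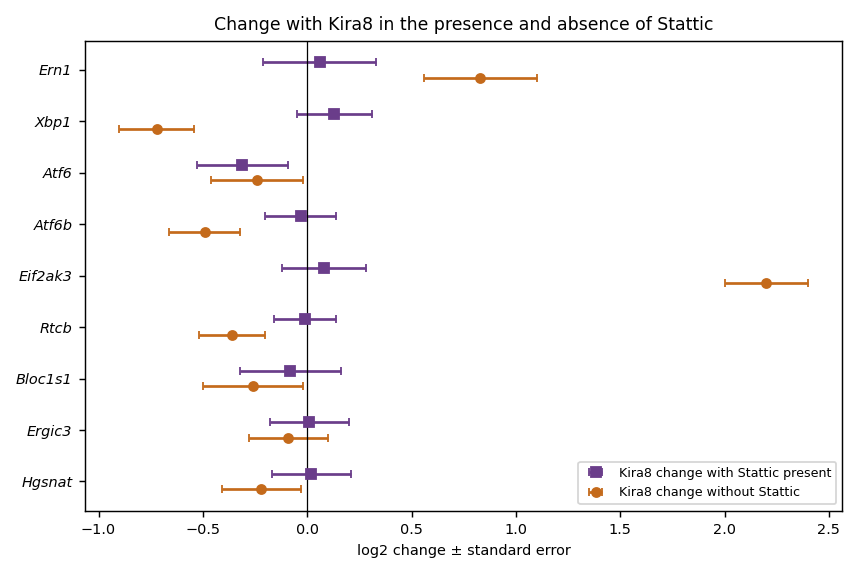
The log2 change on adding Kira8 (horizontal axis, ± standard error) is drawn for 9 genes, with Stattic present (squares) and without it (circles). Eif2ak3 changes by 0.08 with Stattic present and by 2.20 without it, and Ern1 by 0.06 and 0.83.

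Ern1 encodes IRE1alpha, the target of Kira8 (ENSMUSG00000020715, chr11:106394650-106487852, minus strand). It had 33.6 and 35.6 CPM in Kira8, 25.8 and 35.8 CPM in Stattic and 31.4, 32.9 and 31.9 CPM in Kira8+Stattic, against 11.4, 24.9 and 22.3 CPM in None. All 7 libraries with an inhibitor were above all 3 None libraries, and None replicate 1 was lower than the other None libraries. Against None the call was made for Kira8 (0.83 ± 0.27, adjusted p = 0.0495) and for both inhibitors (0.72 ± 0.24, adjusted p = 0.0333), and missed for Stattic (0.66 ± 0.27, adjusted p = 0.0725). The Kira8 call ended without None replicate 1 (0.55, adjusted p = 0.0544), None replicate 3 (adjusted p = 0.0574), Kira8 replicate 1 (adjusted p = 0.158) or Kira8 replicate 3 (adjusted p = 0.222). It also ended with no filter, scaling by RLE or by library size alone, or a fit of those groups only (adjusted p = 0.0501 to 0.0782). The call for both inhibitors ended without any single Kira8+Stattic library (adjusted p = 0.0669 to 0.0811) and with library size alone (adjusted p = 0.0732). For Stattic a call was gained with DESeq2, limma voom and the stricter filter (adjusted p = 0.0371 to 0.0467) and without None replicate 2 (0.87, adjusted p = 0.0311). The interaction was -0.77 ± 0.38 and not called (adjusted p = 0.246). The left-out libraries had 21.5 CPM in Kira8 replicate 2 and 28.8 CPM in Stattic replicate 2.

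Across the 10 libraries the genes whose log2 levels followed Ern1 most closely, among 9649 with a mean of at least 5 CPM, were Smc5, a subunit of the SMC5/6 complex (Pearson r = 0.992), the tankyrase Tnks (0.98), the casein kinase Csnk1a1 (0.974), the splicing factor Son (0.974) and the transcription factor Sp4 (0.974). Among the 5 closest to Xbp1 were Rps19bp1 (0.964), Epsti1 (0.957) and the RNA polymerase subunit Polr2h (0.954). These r describe 10 libraries that share groups and scaling, and no test was made of them.

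Xbp1 (ENSMUSG00000020484, chr11:5520659-5525893, plus strand) was lowest in Kira8. Its total transcript had 147 and 111 CPM in Kira8, 193 and 172 CPM in Stattic and 189, 193 and 216 CPM in Kira8+Stattic, against 234, 223 and 180 CPM in None. The Kira8 pair was below the other 8 libraries, whereas the Stattic and Kira8+Stattic libraries overlapped None. The change with Kira8 was a 1.64-fold fall (-0.72 ± 0.18, adjusted p = 0.0146), which was not called without Kira8 replicate 3 (-0.53, adjusted p = 0.219). Neither Stattic (-0.22 ± 0.18, adjusted p = 0.35) nor both inhibitors (-0.09 ± 0.16, adjusted p = 0.691) gave a call. Kira8+Stattic was 1.55-fold higher than Kira8 (0.63 ± 0.18, adjusted p = 0.0189), a call that ended without Kira8 replicate 3 (0.44, adjusted p = 0.24) or Kira8+Stattic replicate 3 (adjusted p = 0.0644). The interaction was 0.85 ± 0.25 and narrowly missed the threshold (adjusted p = 0.0569), and passed it with DESeq2, limma voom, library size alone and the stricter filter (adjusted p = 0.00613 to 0.0487) and without None replicate 3 (0.95, adjusted p = 0.0374). The left-out libraries had 31.2 CPM (Kira8 replicate 2) and 34.5 CPM (Stattic replicate 2), far below the rest.

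B cell and plasma cell genes are relevant to Xbp1, which plasma cells use heavily. The B cell markers Cd79a, Cd79b, Ms4a1, Pax5, Blnk and Ebf1 summed to 31.5 to 32.9 CPM in Kira8, 15.1 to 20.5 CPM in Stattic, 16.3 to 27.5 CPM in Kira8+Stattic and 86.2 to 99.5 CPM in None, with 4, 6 and 5 of 6 called lower with Kira8, Stattic and both, against 9.59%, 18.9% and 20% of all genes. The plasma cell markers Sdc1, Jchain, Tnfrsf17, Prdm1 and Ighg1 summed to 15.8 to 25.2 CPM in Kira8, 76.6 to 76.7 CPM in Stattic, 48.5 to 76.5 CPM in Kira8+Stattic and 28.8 to 44.3 CPM in None, with Tnfrsf17 at 0 in all Kira8 and Kira8+Stattic libraries. The members of that list went in opposite directions, since Prdm1 (2.07 ± 0.31 with Stattic and 1.86 ± 0.28 with both) and Sdc1 (1.16 ± 0.25 and 1.11 ± 0.23) rose while the immunoglobulin gene Ighg1 fell (-2.94 ± 1.04 and -2.56 ± 0.86). Jchain, the joining chain of secreted antibodies, fell with both (-4.49 ± 0.89) and was -0.73 ± 0.85 with Stattic, and with Kira8 Prdm1 fell (-1.73 ± 0.34). Markers of CD8 T and NK cells, such as Cd8a and Gzmb, summed to 143 to 156 CPM in Kira8, 478 to 586 CPM in Stattic, 153 to 259 CPM in Kira8+Stattic and 1040 to 1810 CPM in None, with Ncr1 at 0 in all libraries with an inhibitor. Gzmb held most of these sums, at 744 to 1370 CPM in None. Of 5 tested, 5, 3 and 4 were called lower with Kira8, Stattic and both, against 9.59%, 18.9% and 20% of all genes. Cd8b1 was not called with Stattic (-0.41 ± 0.31) or both (-0.51 ± 0.27), nor Klrd1 with Stattic (-0.27 ± 0.24). The myeloid markers Lyz2, Csf1r, Cd14, Adgre1, Itgam and Cd68 summed to 59.8 to 62.9 CPM in Kira8, 37.9 to 49.4 CPM in Stattic, 27.4 to 105 CPM in Kira8+Stattic and 28.7 to 44.8 CPM in None. Lyz2 alone had 47.2 to 49.2 CPM in Kira8 and 17.6 to 35.1 CPM in None. Of the 6, 0, 2 and 2 were called higher with Kira8, Stattic and both, against 9.7%, 20.1% and 20.8% of all genes, and 0 were called lower. The part of these cells in the results here was not tested, and in bulk RNA fewer cells of a type cannot be told apart from less RNA per cell.

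**Figure D3:**
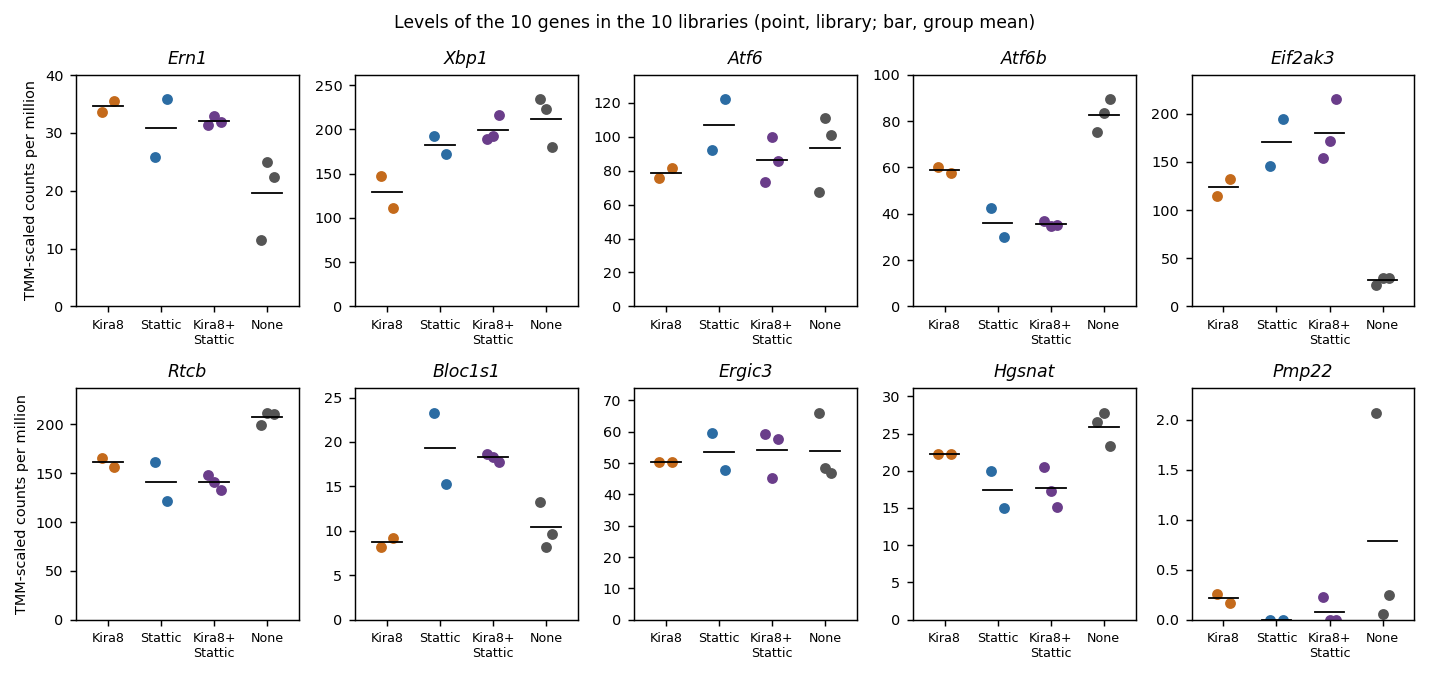
Each panel shows 1 gene, with TMM-scaled CPM (vertical axis from 0) by group, a point per library and a bar at the group mean. Eif2ak3 and Ern1 are higher in all 7 inhibitor libraries than in any None library, Atf6b and Rtcb are lower in all 7, and Xbp1 is lowest in Kira8.

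Atf6 and Atf6b encode paralogous membrane-bound transcription factors, and they behaved differently. Atf6 (ENSMUSG00000026663, chr1:170704674-170867771, minus strand) had 75.4 and 81.6 CPM in Kira8, 92.2 and 122 CPM in Stattic and 73.2, 100 and 85.5 CPM in Kira8+Stattic, against 67.6, 111 and 101 CPM in None. The groups overlapped, and the Kira8 pair lay within the range of None. No comparison was called (log2 changes of -0.24 ± 0.22, 0.20 ± 0.22 and -0.11 ± 0.20 against None). Atf6b (ENSMUSG00000015461, chr17:34647146-34655074, plus strand) had 60.2 and 57.4 CPM in Kira8, 42.6 and 29.8 CPM in Stattic and 36.9, 34.6 and 35.0 CPM in Kira8+Stattic, against 75.1, 83.7 and 89.4 CPM in None. The 4 groups formed steps, with None highest, Kira8 next and the Stattic-treated libraries lowest and overlapping each other. Atf6b fell 2.29-fold with Stattic (-1.19 ± 0.17, adjusted p = 0.000248) and 2.33-fold with both inhibitors (-1.22 ± 0.15, adjusted p = 6.24e-05), and both calls stood whichever library was left out. The Kira8 change of -0.49 ± 0.17 was not called (adjusted p = 0.0631), but was with DESeq2, quality weights on 12 libraries and the stricter filter (adjusted p = 0.0164, 0.0181 and 0.0373) and without None replicate 1 (adjusted p = 0.046). Kira8+Stattic was lower than Kira8 by 0.73 ± 0.17 on the log2 scale (adjusted p = 0.00621), a call that ended without Kira8 replicate 1 (adjusted p = 0.0594). In the left-out libraries Atf6b was at 25.1 CPM (Kira8 replicate 2) and 25 CPM (Stattic replicate 2).

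Rtcb encodes the catalytic subunit of the tRNA ligase complex (ENSMUSG00000001783, chr10:85938637-85957823, minus strand). It had 166 and 156 CPM in Kira8, 161 and 122 CPM in Stattic and 148, 141 and 133 CPM in Kira8+Stattic, against 199, 212 and 211 CPM in None. Every inhibitor library was below every None library. The fall was 1.46-fold with Stattic (-0.55 ± 0.16, adjusted p = 0.0152) and 1.47-fold with both (-0.56 ± 0.14, adjusted p = 0.00639). The Kira8 change of -0.36 ± 0.16 was not called (adjusted p = 0.13), except with DESeq2 (adjusted p = 0.0402). The Stattic call ended without Stattic replicate 3 (adjusted p = 0.181) and with a fit of those groups only (adjusted p = 0.0572). Antisense Ascl4 shares 28 of Rtcb's 2615 exonic bases and was at 0.0574 to 0.52 CPM.

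Among the decay substrates, Bloc1s1, a subunit of the BLOC-1 and BORC complexes of lysosome-related traffic, was the one that rose (ENSMUSG00000090247, chr10:128917882-128924035, minus strand). It had 8.22 and 9.17 CPM in Kira8, 23.3 and 15.3 CPM in Stattic and 18.7, 18.3 and 17.8 CPM in Kira8+Stattic, against 13.3, 8.16 and 9.68 CPM in None. The 5 libraries with Stattic were all above the 5 without it, and Kira8 overlapped None. Bloc1s1 rose 1.86-fold with Stattic (0.90 ± 0.24, adjusted p = 0.00985), 1.76-fold with both inhibitors against None (0.81 ± 0.21, adjusted p = 0.00915) and 2.10-fold with both against Kira8 (1.07 ± 0.25, adjusted p = 0.00643). The change with Kira8 was -0.26 ± 0.24 (adjusted p = 0.516). The Stattic call ended without Stattic replicate 1 (0.56, adjusted p = 0.141) and the call against Kira8 ended without Kira8 replicate 1 (0.99, adjusted p = 0.0697). The left-out libraries went to both extremes, with 0 counts in Kira8 replicate 2, where 3 counts are 0.151 CPM, and 48.0 CPM (419 counts) in Stattic replicate 2.

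Bloc1s1 shares 720 of its 1288 exonic bases with Rdh5, a retinol dehydrogenase gene on the same strand, so its counts depend on how shared reads were assigned. Rdh5 had 2.23 and 1.87 CPM in Kira8, 1.21 and 2.47 CPM in Stattic, 1.10 to 1.5 CPM in Kira8+Stattic and 1.05 to 1.25 CPM in None, and it was not called in any of the 6 comparisons.

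Hgsnat, the lysosomal enzyme that acetylates heparan sulfate (ENSMUSG00000037260, chr8:25944453-25976753, minus strand), fell with Stattic. It had 22.2 and 22.3 CPM in Kira8, 19.9 and 15 CPM in Stattic and 20.5, 17.3 and 15.1 CPM in Kira8+Stattic, against 26.6, 27.8 and 23.3 CPM in None. All inhibitor libraries were below all None libraries. The log2 change was -0.57 ± 0.19 with Stattic (adjusted p = 0.0339) and -0.55 ± 0.17 with both (adjusted p = 0.021), while -0.22 ± 0.19 with Kira8 was not called. The Stattic call ended without None replicate 1, None replicate 2 or Stattic replicate 3 (adjusted p = 0.0552, 0.0791 and 0.264), with quality weights on 12 libraries and with a fit of those groups only (adjusted p = 0.0756 and 0.0634). The call for both ended without None replicate 2 or Kira8+Stattic replicate 2 or 3 (adjusted p = 0.0615, 0.0653 and 0.0914).

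Ergic3, a membrane protein of the compartment between ER and Golgi (ENSMUSG00000005881, chr2:156008045-156018279, plus strand), was called in no comparison of the 10 libraries. It had 50.3 and 50.4 CPM in Kira8, 59.5 and 47.9 CPM in Stattic and 59.4, 45.1 and 57.7 CPM in Kira8+Stattic, against 66.1, 48.3 and 46.8 CPM in None. The groups overlapped throughout. Its log2 changes against None were -0.09 ± 0.19, 0.00 ± 0.19 and 0.01 ± 0.17, none of them called.

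Pmp22, a myelin and epithelial junction protein (ENSMUSG00000018217, chr11:63128982-63159547, plus strand), was close to the detection limit. It had 16 and 10 counts in Kira8, 0 and 0 in Stattic and 12, 0 and 0 in Kira8+Stattic, against 144, 4 and 16 in None. None replicate 1 alone held most of the counts, and the remaining None libraries overlapped Kira8. Stattic was called lower (adjusted p = 0.0391), at least 13.6-fold lower when set against the floor of 3 counts per library and at least 2.61-fold without None replicate 1. That call ended without None replicate 1 (adjusted p = 0.123), Stattic replicate 1 (adjusted p = 0.135) or Stattic replicate 3 (adjusted p = 0.151), and with limma voom (adjusted p = 0.13). All 12 libraries ended it too, in edgeR (adjusted p = 0.199) and with quality weights (adjusted p = 0.0928). In the 10 libraries neither Kira8 (adjusted p = 0.51) nor both inhibitors (adjusted p = 0.118) gave a call in edgeR. For both inhibitors against None a call was gained with quality weights on the 12 libraries (-3.88, adjusted p = 0.0379) and without Kira8+Stattic replicate 1 (adjusted p = 0.0168), the library with the 12 counts. Quality weights also called both inhibitors lower than Kira8 (-3.69, adjusted p = 0.0496), which edgeR on the 10 libraries did not (adjusted p = 0.536).

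Kira8+Stattic was also set against each single inhibitor. Against Kira8, Xbp1 and Bloc1s1 were higher and Atf6b was lower, 3 of 10 genes where 30.7% of all genes were called, 14.7% higher and 16% lower, and the count was 1 without Kira8 replicate 1. That background of 6514 genes became 3579 when Kira8 replicate 1 was left out and 3270 when replicate 3 was. Against Stattic, edgeR called 0 of the 10 genes and 0.0141% of all genes, 3 in number (0.00942% higher and 0.00471% lower), with 874 genes at an unadjusted p under 0.05. DESeq2 called 51 genes there and 0 of the 10, and 0 of the 10 had an unadjusted p under 0.05 in edgeR. The differences for the 9 genes other than Pmp22 ran from -0.31 ± 0.22 for Atf6 to 0.13 ± 0.18 for Xbp1 on the log2 scale.

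Scaled by exonic length, the order of the transcripts differed between the groups. In None, Rtcb had 79.3 ± 2.81 CPM per kb and Xbp1 65.3 ± 8.81, followed by Atf6b at 30.0 ± 2.61 and Ergic3 at 25.3 ± 5.05 (SD, n = 3). Atf6b and Ergic3 overlapped there, as did Atf6 (10.1 ± 2.44), Bloc1s1 (8.07 ± 2.07) and Hgsnat (7.84 ± 0.709), while Pmp22 was last at 0.336 ± 0.473. Rtcb (61.6 ± 2.63, SD, n = 2) stood above Xbp1 (39.7 ± 7.88) in Kira8. They overlapped in Stattic, at 54.2 ± 10.7 for Rtcb and 56.1 ± 4.57 for Xbp1. In Kira8+Stattic every library had Xbp1 (61.4 ± 4.57) above every value of Rtcb (53.8 ± 2.73). Among the sensors, Eif2ak3 reached 20.5 ± 1.95 in Kira8, 28.3 ± 5.78 in Stattic and 29.9 ± 5.2 CPM per kb in Kira8+Stattic, against 4.47 ± 0.745 in None. Ern1 was the lowest of the sensors in all groups, at 4.24 ± 0.169 in Kira8, 3.76 ± 0.864 in Stattic, 3.93 ± 0.0963 in Kira8+Stattic and 2.39 ± 0.876 CPM per kb in None. Eif2ak3 thus stood below Atf6 and Atf6b in None and above both in Stattic and Kira8+Stattic, and in Kira8 it lay beside Atf6b at 21.3 ± 0.716 CPM per kb. Atf6 kept to 8.51 to 11.6 CPM per kb as a group mean.

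**Figure D4:**
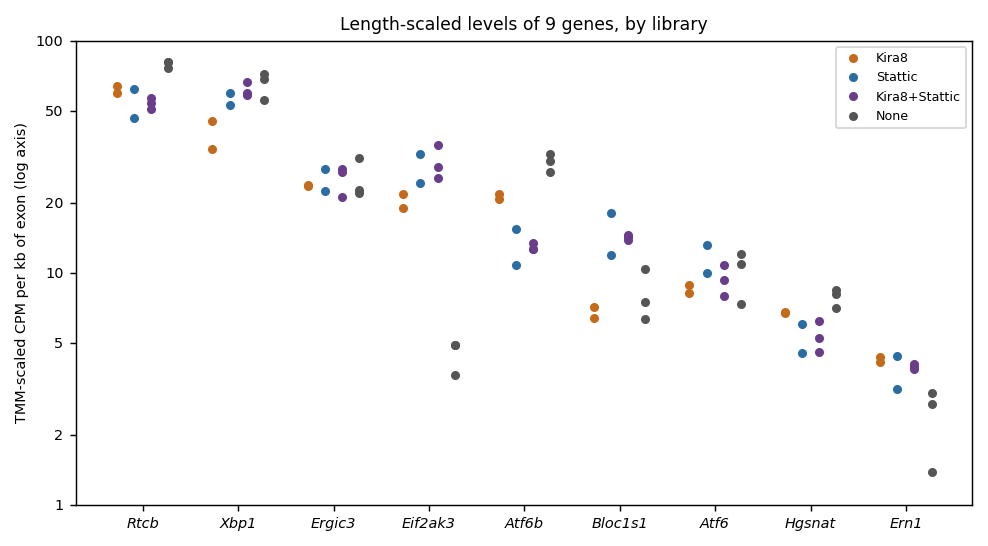
TMM-scaled CPM per kb of exon (vertical axis, log scale) are drawn for 9 genes, a point per library and a colour per group. Rtcb and Xbp1 lie highest and Ern1 lowest, and Eif2ak3 separates the inhibitor libraries (20.5 to 29.9 as group means) from None (4.47). Pmp22, with libraries at 0, is left out.

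Some of the levels followed each other across the libraries. Atf6b, Rtcb and Hgsnat correlated at r = 0.96 (Atf6b with Rtcb), 0.92 (Rtcb with Hgsnat) and 0.90 (Atf6b with Hgsnat). Eif2ak3 had r of -0.90 with Atf6b, -0.93 with Rtcb and -0.85 with Hgsnat, and 0.81 with Ern1. Ern1 and Xbp1 had r = -0.56. These values describe 10 libraries from 4 groups, which share scaling and treatment.

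The other genes of the pathway were counted from lists. The lists share genes, so their counts overlap and are not independent. Pdia6, Sec61a1 and Dnajb9 are counted both here and as XBP1 targets, and Hspa5 both here and as an ATF6 target. Those called lower with Kira8 in the first list, Pdia6, Hspa5 and Sec61a1, are all counted again in this way. Partners and regulators of IRE1alpha had 0 higher, 3 lower and 11 not called of 14 with Kira8, 1, 4 and 9 with Stattic and 1, 5 and 8 with both, at medians of -0.24, -0.33 and -0.17 (0, 0.08 and 0.09 over all genes). Among all genes tested, 19.3%, 39% and 40.8% were called in either direction in these comparisons. Pdia6, a disulfide isomerase that binds IRE1alpha, fell with each (-1.37 ± 0.22, -1.32 ± 0.22 and -1.06 ± 0.19). Hspa5, the chaperone BiP that holds the sensors inactive, fell with Kira8 (-1.25 ± 0.29) and was 0.00 ± 0.27 with Stattic and 0.06 ± 0.25 with both. Dnajb9, the cochaperone ERdj4 that recruits BiP to IRE1alpha, was not called with Kira8 (0.46 ± 0.22) and rose with Stattic (2.71 ± 0.22) and both (2.90 ± 0.21).

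The tRNA ligase list, Rtcb's partners and other RNA end enzymes, had 0 higher and 4 lower of 8 with Kira8 and 1 higher and 2 lower with Stattic and with both, at medians of -0.49, -0.28 and -0.28. Of all genes, 9.7% were called higher and 9.59% lower with Kira8, 20.1% and 18.9% with Stattic and 20.8% and 20% with both. The complex subunits Fam98b (-0.97 ± 0.18, -1.31 ± 0.18 and -1.22 ± 0.16) and Ddx1 (-0.72 ± 0.19, -1.26 ± 0.19 and -1.30 ± 0.17) fell in all 3 comparisons against None. Rtca, the RNA 3'-phosphate cyclase, which opposes Xbp1 splicing in neurons of the fly, fell with Kira8 (-0.72 ± 0.17), while Clp1, an RNA 5' kinase, rose with Stattic (1.36 ± 0.20) and both (1.35 ± 0.19).

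Of 10 processing factors and relatives of ATF6, edgeR called 0 with Kira8, against 4 at an unadjusted p under 0.05 and 1 each with DESeq2 and limma voom. With Stattic 2 were higher and 3 lower, and with both inhibitors 1 and 4. The share of all genes called in either direction was 19.3% with Kira8, 39% with Stattic and 40.8% with both. The site-2 protease gene Mbtps2 fell (-2.11 ± 0.26 with Stattic and -1.95 ± 0.22 with both), as did the site-1 protease gene Mbtps1 (-0.82 ± 0.20 and -0.68 ± 0.17) and Nfya, a subunit of NF-Y (-1.48 ± 0.18 and -1.13 ± 0.16). Yy1, a cofactor of ATF6, rose (0.76 ± 0.14 and 0.63 ± 0.13). Medians over the list were 0.12, -0.04 and -0.12.

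Genes around PERK had 4 higher and 2 lower of 11 with Kira8, 5 and 3 with Stattic and 5 and 4 with both, at medians of -0.03, -0.20 and -0.13, where 19.3%, 39% and 40.8% of all genes were called in either direction. Among those that rose with every treatment were 3 textbook targets of ATF4, namely Ddit3, encoding CHOP (1.90 ± 0.18, 2.81 ± 0.18 and 3.01 ± 0.17), the phosphatase subunit Ppp1r15a (1.71 ± 0.20, 3.89 ± 0.21 and 4.03 ± 0.20) and the pseudokinase Trib3 (2.06 ± 0.26, 2.71 ± 0.26 and 2.82 ± 0.25). Eif2s1, the substrate of PERK, fell (-1.07 ± 0.17, -0.72 ± 0.16 and -0.93 ± 0.15). In the interaction 1 of the 11 was called higher and 3 lower, against 4.55% and 3.97% of all genes. Ddit3 (-1.70 ± 0.25), Ppp1r15a (-1.57 ± 0.28) and Trib3 (-1.96 ± 0.36) were called in the direction of Eif2ak3, and Eif2s1 (0.87 ± 0.23) in the opposite one.

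Targets of XBP1 and of ATF6 were counted as separate lists, and no test compared the lists. Both share genes with the list of IRE1alpha partners, and the ATF6 targets also share a gene with the list around PERK. Of all genes, 9.7% rose and 9.59% fell with Kira8, 20.1% and 18.9% with Stattic and 20.8% and 20% with both. Of 21 XBP1 targets, 1 rose and 6 fell with Kira8, 2 rose and 11 fell with Stattic, and 3 rose and 12 fell with both, at medians of -0.04, -0.54 and -0.60. The oligosaccharyltransferase subunit Rpn1 (-1.23 ± 0.18, -1.14 ± 0.18 and -1.14 ± 0.16) and the cochaperone Dnajb11 (-1.12 ± 0.19, -1.17 ± 0.19 and -1.01 ± 0.17) fell in each, while Dnajb9, named above, had the highest change of the list with Stattic and with both. Of 12 ATF6 targets, 10 fell and 0 rose with Kira8, 6 fell and 1 rose with Stattic, and 7 fell and 1 rose with both, at medians of -1.04, -0.58 and -0.56. Sdf2l1, an ER chaperone cofactor, had a change with Kira8 that differed with and without Stattic (-1.91 ± 0.17 with Kira8, -1.19 ± 0.17 with Stattic and -0.78 ± 0.14 with both, interaction 2.32 ± 0.24, adjusted p = 0.000719). For the disulfide isomerase Pdia4 the interaction was 1.89 ± 0.27. In all, 6 of the 12 were called higher and 0 lower in the interaction, against 4.55% and 3.97% of all genes. Of 6 further decay substrates that could be tested, 0 were called with Kira8 by edgeR, DESeq2 or limma voom, with 0 at an unadjusted p under 0.05, and 2 fell with Stattic and with both. These were Tapbp, a loader of MHC class I peptides (-1.49 ± 0.25 and -1.80 ± 0.22), and Ighm, an immunoglobulin gene of B cells (-1.27 ± 0.29 and -1.47 ± 0.26). With Kira8, Ighm was not called (-0.61 ± 0.29), while 4 of the 6 B cell markers given above were called lower. A link between Ighm and the B cell marker sums was not tested.

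**Figure D5:**
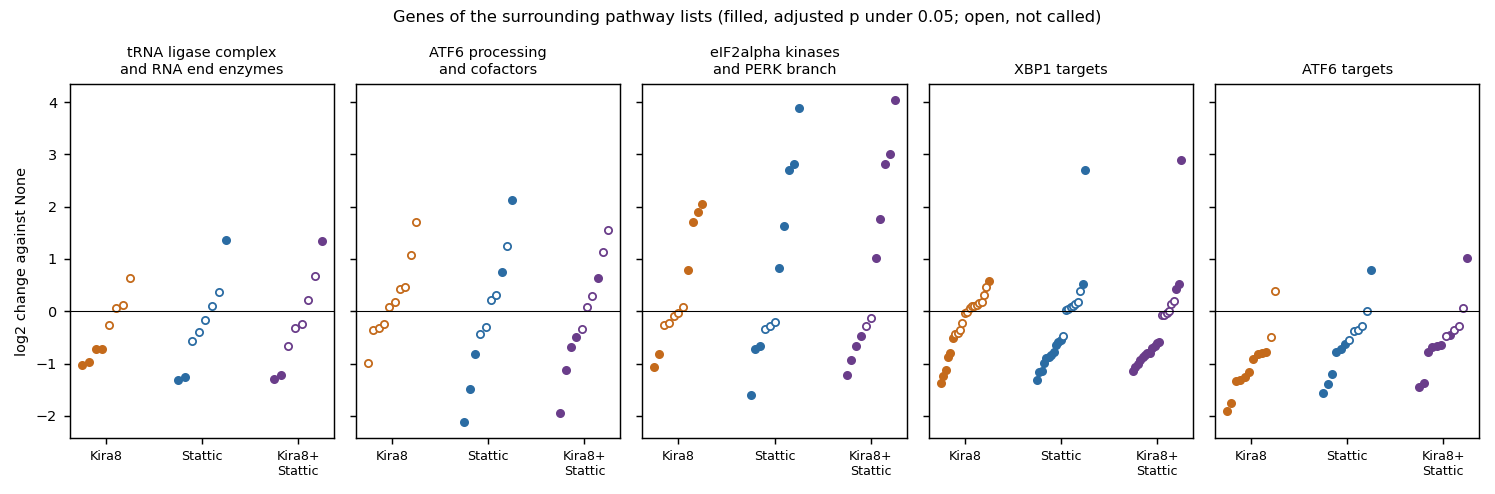
The log2 change against None (vertical axis) of every tested gene of 5 lists is drawn for Kira8, Stattic and Kira8+Stattic, filled where called and sorted within a list. The PERK list spreads upward to 4.03 with both inhibitors, and 10 of 12 ATF6 targets are called lower with Kira8.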

How the data were processed

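RNA sequencing counts were deposited by the authors as whole-number read counts per gene for 55401 Ensembl genes in 12 libraries. Genome build mm10 is named per the submitters' processing notes. The aligner, counting program and strand setting were not given in the sources used here. Libraries were grouped by title. From the counts, genes were filtered with filterByExpr, scaled by TMM and tested with edgeR 4.0.16 (glmQLFit and glmQLFTest, R 4.3.3) in a single fit of 10 libraries, without Kira8 replicate 2 and Stattic replicate 2. A standard error is the log2 change divided by the square root of F. Alternatives were DESeq2 1.42.0, limma voom 3.58.1, other scalings and filters, all 12 libraries, a fit of only the groups compared, the replicate number as a block and leaving out each library. In 10 simulated libraries of the 4 groups (20265 genes), known changes were put into the Kira8 libraries. For Kira8 against None, edgeR recovered 49% of 2-fold and 99% of 4-fold changes, with 6 false calls. The changes were put only into genes above a minimum mean CPM, so these rates do not cover low genes such as Pmp22.

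All 10 genes, the 5 genes closest to Ern1 and to Xbp1 by Pearson correlation of log2(CPM + 0.5), and up to 4 members of each list with the smallest adjusted p could be named. Some genes of the marker lists and of those closest to Xbp1 are not reported here and are in no marker sum. The genes, the lists and the libraries left out were chosen with earlier results of these data known. Sequences come from GENCODE M21 transcripts and RefSeq promoters. Floors of 3 counts cover counting error only.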

Additional observations from a re-analysis of the deposited data

Results flagged for a closer look

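The effect of Kira8 on Eif2ak3 differed with and without Stattic. The Kira8 change was 0.08 with Stattic present and 2.20 without it, a difference of -2.12 ± 0.28 on the log2 scale (adjusted p = 0.00223, edgeR's quasi-likelihood test). The 2 Kira8 libraries, at 115 and 132 CPM, and the 3 Kira8+Stattic libraries, at 154 to 215 CPM, all lay above the None libraries at 21.7 to 29.5 CPM. With all 12 libraries the difference was not called.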

How the results depend on the processing

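The direction and call of most results held under the alternatives, and the exceptions were these. Of the 10 genes, edgeR on all 12 libraries called 0 for Kira8, Stattic and both against None, 0 for both against Kira8 and 0 for the interaction. With quality weights the interaction gave 0 as well. DESeq2 called 5 for Kira8. For the interaction DESeq2, limma voom, library size alone and the filter of more than 1 CPM called 2. The DESeq2 total over all genes for the interaction is given below. The totals of DESeq2 for Kira8 and of the other settings for the interaction are not given here, so those counts cannot be set against them. Leaving out a library gave 1 to 3 for Kira8, 3 to 6 for Stattic, 4 to 6 for both, 1 to 4 for both against Kira8, 0 for both against Stattic and 1 to 2 for the interaction, where 2 were called without None replicate 3. Over all genes, leaving out a library gave 1642 to 3936 calls for Kira8, 5534 to 8649 for Stattic and 6937 to 9091 for both. It gave 3270 to 6029 for both against Kira8, 1 to 3 for both against Stattic and 498 to 2066 for the interaction. The number of all genes called thus moved under the alternatives too, so these counts do not set the 10 genes apart from the rest. The causes were not tested.

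The labels do not say what a replicate number shares. Of 13 same-numbered pairs, 7 had a correlation of deviations over 0.1 (-0.01 to 0.21). Deviations were taken from group means, so in groups of 2 libraries they mirror each other and some of these values repeat. The correlations thus cannot decide on pairing, and the numbers were not taken as pairing. As a hint from the data, limited in the same way, 9 of 10 libraries matched best with their own number. The replicate block gave 3, 7, 7, 4, 0 and 1 genes for Kira8, Stattic, both, both against Kira8, both against Stattic and the interaction. The share of all genes called with the block is not given here, so these counts cannot be set against it. The block gained calls of Ern1 with Stattic (0.80, adjusted p = 0.0213), Pmp22 with both (-3.76, adjusted p = 0.0349) and Eif2ak3 for both against Kira8 (0.51, adjusted p = 0.0276), and it reversed Atf6 for both against Kira8 (0.00) and, for both against Stattic, Ern1 (-0.02) and Bloc1s1 (0.02).

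All other reversed changes were uncalled. On all 12 libraries they were Atf6 with Stattic (-0.08) and in the interaction (0.51), Ergic3 with both (-0.01), Ern1 (0.03), Rtcb (0.23) and Hgsnat (0.18) for both against Kira8, and Atf6b (0.08) and Rtcb (0.47) for both against Stattic. Quality weights reversed Ergic3 with Stattic (0.05) and, for both against Stattic, Atf6b (0.01), Rtcb (0.05) and Ergic3 (-0.01), and Atf6 in the interaction (0.04). Ergic3 with Stattic also turned with DESeq2 (0.02), limma voom (0.01), RLE factors (0.02) and the stricter filter (0.05), Rtcb for both against Stattic with limma voom and library size alone (0.00 in each), and Ergic3 with library size alone for both against None (-0.15) and against Kira8 (-0.02).

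Reversed when a library was left out were, against None, Ergic3 (-0.18 to 0.08) and Pmp22 (-2.43 to 0.49) with Kira8, Atf6 (-0.01 to 0.38) and Ergic3 (-0.17 to 0.18) with Stattic, and Atf6 (-0.29 to 0.03) and Ergic3 (-0.11 to 0.19) with both. For both against Stattic they were Ern1 (-0.15 to 0.32), Atf6b (-0.26 to 0.26), Eif2ak3 (-0.11 to 0.30), Rtcb (-0.20 to 0.21), Bloc1s1 (-0.35 to 0.26), Ergic3 (-0.14 to 0.18) and Hgsnat (-0.17 to 0.24). In the interaction they were Atf6 (-0.25 to 0.15), Bloc1s1 (-0.10 to 0.51) and Ergic3 (-0.07 to 0.27).

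Over all genes, edgeR on 12 libraries called 0, 65 and 57 for Kira8, Stattic and both, and 0 otherwise. DESeq2 called 51 for both against Stattic and 3179 in the interaction. Library size alone put the median change of all genes at -0.08 with Stattic, against 0.08 with TMM. Under that scaling the changes of Atf6b (-1.36), Rtcb (-0.71) and Hgsnat (-0.74) stayed below the median of -0.08 and that of Bloc1s1 (0.72) above it. With 2 libraries in Kira8 and in Stattic, changes near 2-fold could be missed.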

Other observations

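In the left-out libraries further genes of the set had these levels, scaled over 12 libraries. In Kira8 replicate 2, Atf6 was at 28.8, Ergic3 at 25.1, Rtcb at 30.0 and Hgsnat at 1.62 CPM. In Stattic replicate 2, Atf6 was at 46.6, Ergic3 at 29.9, Rtcb at 18.9 and Hgsnat at 2.18 CPM. Pmp22 had 0 counts in both.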
